A study of Mus musculus with 12 samples.

Results

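The antioxidant defence genes described here are 10 mRNAs measured by RNA sequencing of adult mouse cardiomyocytes: the superoxide dismutases Sod1, Sod2 and Sod3, the peroxide-removing enzymes Cat, Gpx1, Gpx3, Prdx3 and Prdx5, and the inducible enzymes Hmox1 and Nqo1. They were chosen by gene symbol from the 21493 genes counted in every library, each symbol matched 1 gene, and all 10 were among the 13158 genes that passed the filter on low counts. The study asked how loss of desmin, the muscle intermediate filament encoded by Des, alters gene expression in cardiomyocytes at rest and under swimming stress. Heart muscle cells were isolated by enzymatic perfusion from mice aged 3 months and gave 12 libraries in 4 groups of 3: Des+/+ non-swim, Des+/+ swim, Des-/- non-swim and Des-/- swim. Each library pooled cardiomyocytes of several mice, so the spread between libraries is that between pools. In the study's methods Des+/+ and Des-/- are short names for mice of a 129SV background that also carry an αMHC-GFP transgene, a green fluorescent reporter driven by the α-myosin heavy chain promoter. The labels of these libraries do not name the transgene.

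Superoxide leaks from the respiratory chain of the heart, a tissue packed with mitochondria, and superoxide dismutases turn it into hydrogen peroxide: Sod1 in the cytosol, Sod2 in the mitochondrial matrix and Sod3 outside the cell. Catalase in peroxisomes, glutathione peroxidases and peroxiredoxins then remove the peroxide. Hmox1 breaks down heme and Nqo1 reduces quinones, and both are classical targets of the transcription factor Nrf2.

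Reads assigned to genes ranged from 8935126 to 12072443 per library in Des+/+ non-swim, 7425291 to 9440967 in Des+/+ swim, 8058801 to 11206142 in Des-/- non-swim and 4320819 to 6521963 in Des-/- swim. Levels are given in CPM, the usual read count relative to library size, here with library sizes scaled by TMM factors. Des itself was at 973 to 3647 CPM in the 6 Des+/+ libraries and at 50.3 to 101 CPM in the 6 Des-/- libraries. Markers of the labelled cell type were not at equal levels in all groups. The summed level of 10 cardiomyocyte markers was 56466 to 90332 CPM in Des+/+ non-swim and 6086 to 26289 CPM in Des-/- non-swim, with 29443 to 50096 CPM and 15632 to 26407 CPM in Des+/+ swim and Des-/- swim. The summed level of 10 fibroblast markers was 3548 to 4148 CPM, 2474 to 3621 CPM, 9035 to 41953 CPM and 4361 to 14329 CPM in Des+/+ non-swim, Des+/+ swim, Des-/- non-swim and Des-/- swim. Des-/- non-swim replicate 3 had the highest sums of the fibroblast markers (41953 CPM) and of 10 macrophage markers (4388 CPM, against 233 to 1475 CPM elsewhere), and it also had the lowest cardiomyocyte sum. At rest 5 of 6 tested erythrocyte markers, 9 of 12 early-response genes often induced by cell isolation and 1 of 3 neutrophil markers were higher in Des-/-, with 0 of 8 endothelial and 0 of 7 mural markers called. Of all genes tested 13.8% were called higher and 18.0% lower. Defining markers of the first 3 cell types, Myh6 and Tnnt2, Col1a1 and Pdgfra, and Cd68 and Csf1r, were above 0 in every library. In RNA from pooled cells, fewer cells of a type and less RNA per cell cannot be told apart, and the part of cell composition in the values that follow was not tested beyond the values given.

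Promoter sequences were available for 8 of the 10 genes in a RefSeq table of build GRCm38.p6, each running from 250 bases before to 50 bases after the annotated start. They were searched on both strands for the GC box GGGCGG and for the core of the antioxidant response element TGACNNNGC, the element that Nrf2 binds. A GC box was found in 8 of 8, against 35.7% of all 32851 promoters in the table and 61.2% of the 13409 promoters of genes that passed the filter. The antioxidant response element core was found in 1 of 8, Sod1, against 12.4% of all promoters and 14.2% of those of genes that passed the filter. A looser form, TGANNNNGC, which includes the core, was found in 2 of 8, Sod1 and Prdx5, against 41.3% and 42.7%. Searches for the NRF1 motif, the ERR motif AAGGTCA, the AP-1 motif TGANTCA and the E-box CACGTG found none in the 8. Of all promoters 4.60%, 4.72%, 7.81% and 7.15% held them. Among promoters of genes that passed the filter these were 9.31%, 3.21%, 5.26% and 9.73%. At such shares 8 promoters are too few for an absence to be informative. Below are the promoters of Sod2, Prdx3 and Nqo1, the 3 members with the largest drop in Des-/- non-swim libraries, and of Sod1, the 1 of the 8 holding the core. Capitals mark GC boxes in either orientation and, in Sod1, the antioxidant response element core, which reads GCGTGGTCA on the printed strand at -56 to -48 from the start.
Sod2 promoter, chr17:13007589-13007888, plus strand: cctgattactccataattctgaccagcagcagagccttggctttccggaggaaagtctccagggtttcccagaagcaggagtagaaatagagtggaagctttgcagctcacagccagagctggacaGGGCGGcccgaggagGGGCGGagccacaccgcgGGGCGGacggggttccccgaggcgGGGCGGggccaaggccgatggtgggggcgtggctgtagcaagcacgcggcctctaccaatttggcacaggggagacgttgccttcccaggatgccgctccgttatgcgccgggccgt
Prdx3 promoter, chr19:60874489-60874788, minus strand: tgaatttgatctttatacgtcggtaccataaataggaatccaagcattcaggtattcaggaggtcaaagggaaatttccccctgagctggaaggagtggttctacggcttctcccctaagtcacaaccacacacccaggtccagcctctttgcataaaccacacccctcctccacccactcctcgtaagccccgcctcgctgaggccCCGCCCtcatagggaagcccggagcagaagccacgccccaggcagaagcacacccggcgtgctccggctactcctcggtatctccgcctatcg
Nqo1 promoter, chr8:107403156-107403455, minus strand: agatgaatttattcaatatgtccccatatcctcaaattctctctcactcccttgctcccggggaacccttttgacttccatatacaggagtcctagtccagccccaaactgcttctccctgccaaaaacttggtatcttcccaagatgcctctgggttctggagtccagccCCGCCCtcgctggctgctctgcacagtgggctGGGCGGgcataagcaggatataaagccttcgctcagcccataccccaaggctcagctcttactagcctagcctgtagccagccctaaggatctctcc
Sod1 promoter, chr16:90220512-90220811, plus strand: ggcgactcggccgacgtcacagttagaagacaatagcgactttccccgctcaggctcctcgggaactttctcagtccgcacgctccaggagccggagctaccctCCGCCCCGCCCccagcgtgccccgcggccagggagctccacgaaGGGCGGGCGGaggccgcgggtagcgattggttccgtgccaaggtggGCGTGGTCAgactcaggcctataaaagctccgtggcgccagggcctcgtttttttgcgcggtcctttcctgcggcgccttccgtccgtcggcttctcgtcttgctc

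The Sod2 promoter held 4 separate GC boxes and the Prdx3 promoter 1. Nqo1 held 2, and Sod1 held 4 that overlap in pairs. A match is a description of these letters in this window. The RefSeq start of Sod2 lies inside the gene span given below, which is from GENCODE M21 on GRCm38, as are all gene positions here.

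The first comparison asked what loss of desmin does without swimming. In Des-/- non-swim libraries 5 of the 10 genes fell, Sod2, Cat, Prdx3, Prdx5 and Nqo1, and 1 rose, Gpx1 (edgeR, adjusted p under 0.05). Of all genes tested, 18.0% fell and 13.8% rose in the same comparison. The libraries of the 2 genotypes did not overlap for 7 of the 10, against 47.9% of all genes. The median log2 change of the 10 was -0.84, beside 0.04 over all genes tested. After swimming, 2 of the 10 were lower in Des-/- libraries, Sod2 and Prdx3, and 0 were higher, where 5.60% of all genes were lower and 4.99% higher. The median log2 change of the 10 was then -0.0013 and that of all genes 0.02. Of the 10, 6 did not overlap between genotypes after swimming, against 35.9% of all genes. An unadjusted edgeR p under 0.05 was reached after swimming by 6 of the 10, against 30.3% of all genes. Sod2, Prdx3, Cat and Nqo1 were lower, and Sod3 and Gpx3 higher. The count of called genes after swimming depended on single libraries. It was 0 without Des+/+ swim replicate 1, Des+/+ swim replicate 3 or Des-/- swim replicate 3. It was 5 without Des-/- non-swim replicate 3, when Sod3, Gpx1 and Gpx3 passed as higher too. That library is outside the comparison but enters the shared estimate of spread. DESeq2 called 4, adding Nqo1 and Gpx3.

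**Figure D1:**
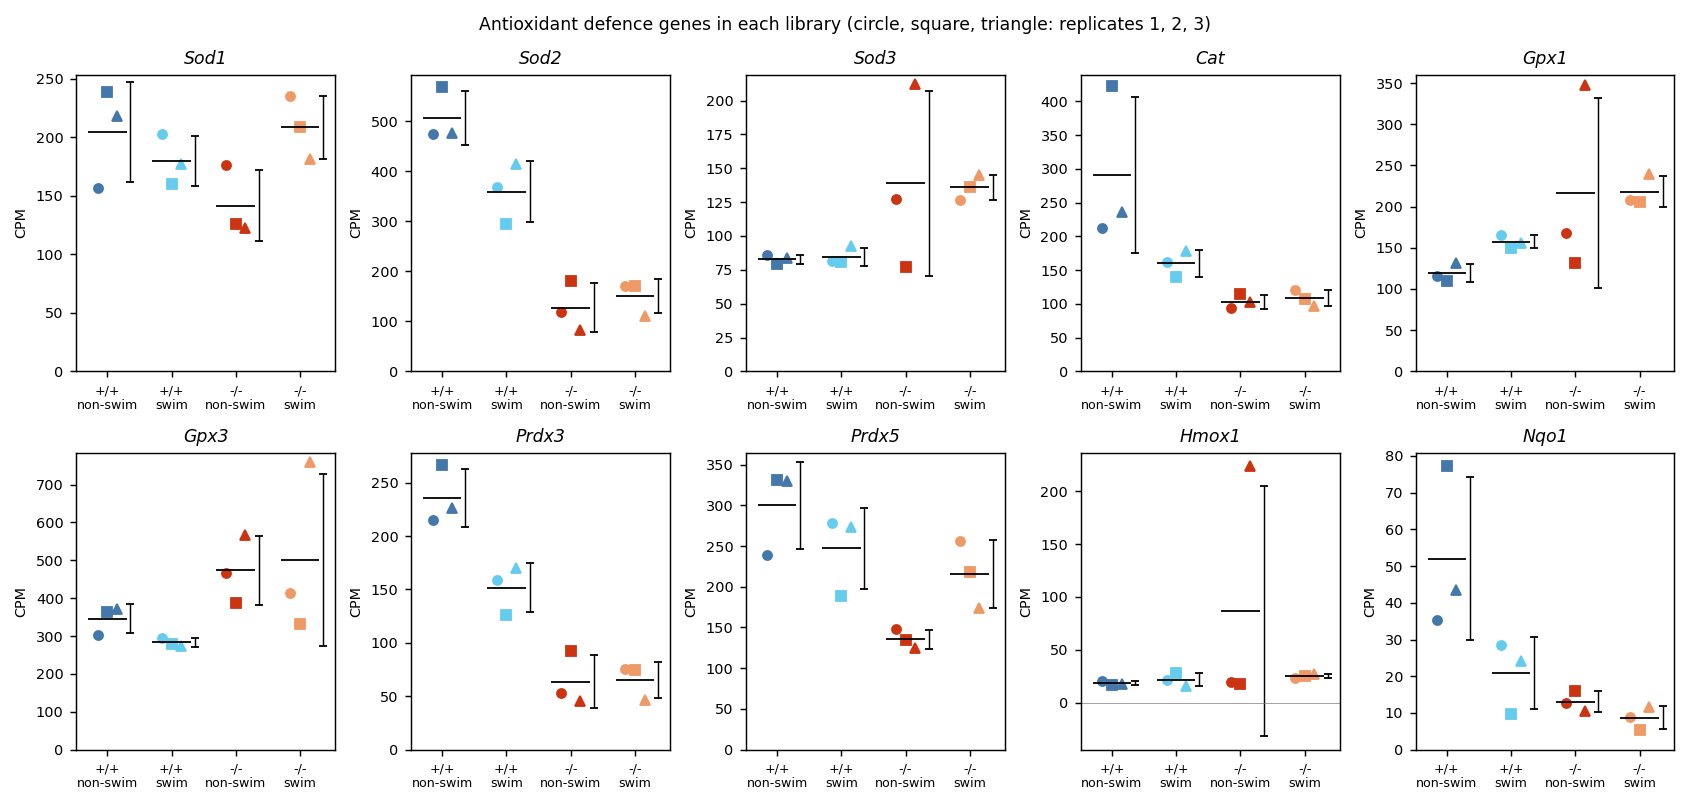
Level of each antioxidant gene in CPM (vertical axes, from 0 except for Hmox1, whose SD bar runs below 0) in the 12 libraries, by genotype and swimming (horizontal axes). Circles, squares and triangles are replicates 1, 2 and 3, the horizontal line is the group mean and the bar beside it is ± 1 SD (n = 3). Sod2 and Prdx3 are lower in all 6 Des-/- libraries than in all 6 Des+/+ libraries, and Hmox1 stands at 223 CPM in 1 Des-/- non-swim library.

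The mitochondrial enzymes Sod2 and Prdx3 were the members that passed in both conditions. Sod2, the manganese superoxide dismutase (chromosome 17, 13006846 to 13040063, plus strand), was at 473, 569 and 476 CPM in Des+/+ non-swim libraries 1, 2 and 3 and at 118, 179.8 and 83.5 CPM in Des-/- non-swim libraries 1, 2 and 3. After swimming it was at 368, 294 and 415 CPM in Des+/+ and at 170.2, 170.1 and 111 CPM in Des-/-. Every Des-/- library was below every Des+/+ library. The difference without swimming was -1.99 on the log2 scale (SE 0.28, edgeR adjusted p = 0.000975), a level 3.99-fold lower, and after swimming it was -1.25 (SE 0.27, adjusted p = 0.0196), 2.39-fold lower.

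Prdx3, the peroxiredoxin of the mitochondrial matrix (chromosome 19, 60864051 to 60874556, minus strand), followed the same order. It was at 215, 266 and 226 CPM in Des+/+ non-swim, 53.1, 92.1 and 45.5 CPM in Des-/- non-swim, 159, 126 and 169.8 CPM in Des+/+ swim and 75.8, 75.0 and 46.2 CPM in Des-/- swim. Again no Des-/- library reached a Des+/+ library. Prdx3 fell by 1.89 on the log2 scale without swimming (SE 0.27, edgeR adjusted p = 0.00108) and its log2 difference after swimming was -1.21 (SE 0.27, adjusted p = 0.0220). For both genes the call without swimming held whichever library was left out. After swimming it was lost without Des+/+ swim replicate 1 (adjusted p = 0.0518 for Sod2 and 0.0571 for Prdx3), without Des+/+ swim replicate 3 (0.0754 and 0.0807) and without Des-/- swim replicate 3 (0.0549 and 0.0574). Across the 12 libraries Sod2 and Prdx3 moved together, with a Pearson correlation of log2 CPM of 0.99 over all libraries and 0.98 after subtracting group means (n = 12). This is a description over libraries that differ in the marker levels above.

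Prdx5, a peroxiredoxin found in mitochondria, peroxisomes and cytosol (chromosome 19, 6906697 to 6910106, minus strand), differed between genotypes at rest. Its level was 238, 332 and 329 CPM in Des+/+ non-swim and 148, 135 and 124 CPM in Des-/- non-swim, without overlap. It fell by 1.15 on the log2 scale (SE 0.20, edgeR adjusted p = 0.00223), to 45.2% of the Des+/+ level. After swimming the libraries overlapped, at 279, 189 and 273 CPM in Des+/+ and 256, 218 and 174 CPM in Des-/-, and the log2 difference was -0.19 (SE 0.20, adjusted p = 0.539).

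Cat, the peroxisomal catalase (chromosome 2, 103453849 to 103485160, minus strand), was at 213, 423 and 237 CPM in Des+/+ non-swim and at 93.3, 114 and 102 CPM in Des-/- non-swim. The groups did not overlap and Cat fell by 1.50 on the log2 scale (SE 0.24, edgeR adjusted p = 0.00132), 2.82-fold. After swimming it was at 162, 139 and 179 CPM in Des+/+ and 121, 107 and 97.6 CPM in Des-/-. These did not overlap either, but the log2 difference of -0.56 (SE 0.23) did not pass (adjusted p = 0.133, or 0.0364 without Des+/+ non-swim replicate 2).

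Nqo1, the quinone reductase (chromosome 8, 107388225 to 107403206, minus strand), had the lowest levels of the 5 genes that fell. It was at 35.4, 77.3 and 43.6 CPM in Des+/+ non-swim and 12.6, 16.1 and 10.5 CPM in Des-/- non-swim, with no overlap. The log2 change was -1.99 (SE 0.41, edgeR adjusted p = 0.00502), a 3.98-fold lower level. In Des+/+ swim it was at 28.5, 9.84 and 24.2 CPM and in Des-/- swim at 8.96, 5.47 and 11.7 CPM, which overlapped, with a log2 difference of -1.24 (SE 0.43, adjusted p = 0.0830) that passed with DESeq2 (adjusted p = 0.0286) and without Des+/+ swim replicate 2 (edgeR adjusted p = 0.0380). Nqo1 rests on few reads in the swim libraries, down to 25 counts in Des-/- swim. The calls of Sod2, Cat, Prdx3, Prdx5 and Nqo1 without swimming held in all 12 fits with 1 library left out and under the 8 other settings tried.

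Sod1, the copper and zinc superoxide dismutase (chromosome 16, 90220754 to 90226329, plus strand), passed in neither condition with edgeR. It was at 157, 238 and 218 CPM in Des+/+ non-swim, 176, 126 and 122 CPM in Des-/- non-swim, 203, 160.0 and 177 CPM in Des+/+ swim and 235, 208 and 182 CPM in Des-/- swim. The genotypes overlapped in both conditions. The log2 difference was -0.53 without swimming (SE 0.20, edgeR adjusted p = 0.0587; DESeq2 adjusted p = 0.0395) and 0.21 after swimming (SE 0.20, edgeR adjusted p = 0.490). Without Des+/+ non-swim replicate 1 or Des-/- non-swim replicate 1 the difference at rest passed (-0.69 and -0.73, edgeR adjusted p = 0.0268 and 0.0245). Neighbours on the opposite strand overlap Sod1 (Scaf4, 650 bases) and Prdx5 (Trmt112, 409 bases), and the sources name both a strand-specific kit and one that does not mark strand, so the counts of Sod1 and Prdx5 are uncertain to that extent.

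**Figure D2:**
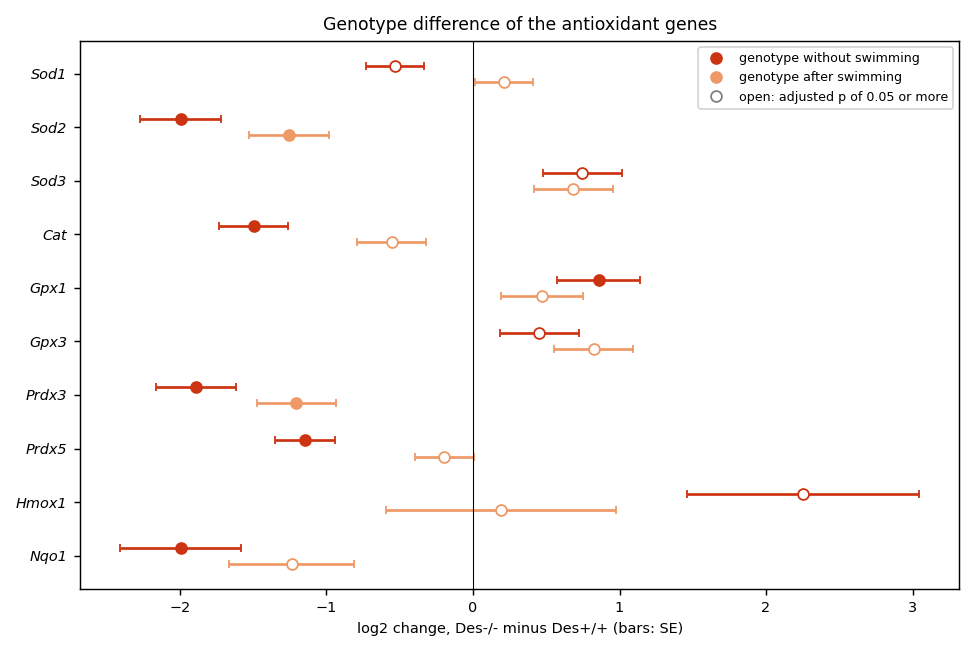
Log2 change of each antioxidant gene between genotypes, Des-/- minus Des+/+ (horizontal axis), without swimming (dark) and after swimming (light), with bars of ± 1 SE from edgeR over 12 libraries. Filled points had an adjusted p under 0.05. Without swimming 5 genes lie to the left and Gpx1 to the right with filled points, and after swimming only Sod2 and Prdx3 are filled.

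The remaining 4 genes had higher mean levels in Des-/- libraries, and for 3 of them 1 library decided much of the value at rest. Gpx1, the cytosolic and mitochondrial glutathione peroxidase (chromosome 9, 108338903 to 108340343, plus strand), was at 116, 110.2 and 132 CPM in Des+/+ non-swim and at 168, 132 and 348 CPM in Des-/- non-swim, where replicate 3 was far above the others. It rose by 0.86 on the log2 scale (SE 0.28, edgeR adjusted p = 0.0378). Without Des-/- non-swim replicate 3 the change was 0.34 (adjusted p = 0.138), and the call was kept in 4 of the 12 fits with 1 library left out. It was also lost, with adjusted p from 0.0506 to 0.115, without any 1 Des+/+ library of either condition or Des-/- swim replicate 2. In the swim libraries Gpx1 was at 166, 150.1 and 156 CPM in Des+/+ and 208, 206 and 239.7 CPM in Des-/-. These groups were tight and did not overlap, but the log2 difference of 0.47 (SE 0.28) did not pass (adjusted p = 0.278, or 0.0420 without Des-/- non-swim replicate 3).

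Hmox1, the inducible heme oxygenase (chromosome 8, 75093621 to 75100589, plus strand), was at a low level in all libraries but 1. It was at 20.4, 16.5 and 17.9 CPM in Des+/+ non-swim, 21.8, 27.9 and 15.5 CPM in Des+/+ swim, 22.9, 25.1 and 26.8 CPM in Des-/- swim, and 19.5, 17.2 and 223 CPM in Des-/- non-swim. Replicate 3 of the last group alone stood out. The log2 difference without swimming was 2.25 (SE 0.79, edgeR adjusted p = 0.0501) and without that library it was 0.01 (adjusted p = 0.977). It passed without replicate 1 or replicate 2 of that group (adjusted p = 0.0199 and 0.0131), which leaves the high library with 1 other. After swimming the difference was 0.19 (SE 0.78, adjusted p = 0.889).

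Sod3, the extracellular superoxide dismutase (chromosome 5, 52363791 to 52371418, plus strand), was at 85.7, 79.2 and 83.6 CPM in Des+/+ non-swim, 127, 77.3 and 212 CPM in Des-/- non-swim, 81.4, 80.5 and 92.2 CPM in Des+/+ swim and 127, 136 and 145 CPM in Des-/- swim. The genotypes overlapped at rest and not after swimming. Its log2 difference was 0.75 without swimming (SE 0.27, edgeR adjusted p = 0.0544), 0.31 without Des-/- non-swim replicate 3, and 0.68 after swimming (SE 0.27, adjusted p = 0.117). At rest it passed with DESeq2 (adjusted p = 0.0274) and without Des-/- non-swim replicate 2 (1.03, edgeR adjusted p = 0.00259). After swimming it passed without Des-/- non-swim replicate 2 or 3 (adjusted p = 0.0327 and 0.0234).

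Gpx3, the secreted glutathione peroxidase (chromosome 11, 54902453 to 54910377, plus strand), was at 304, 363 and 372 CPM in Des+/+ non-swim, 467, 386 and 568 CPM in Des-/- non-swim, 296, 279 and 275 CPM in Des+/+ swim and 413, 332 and 759 CPM in Des-/- swim. Every Des-/- library was above the Des+/+ libraries of its own condition. The log2 difference did not pass at rest (0.45, SE 0.27, edgeR adjusted p = 0.219) or after swimming (0.82, SE 0.27, adjusted p = 0.0704), and the latter was 0.39 without Des-/- swim replicate 3. The latter passed with DESeq2 (adjusted p = 0.0194), without Des-/- swim replicate 2 (edgeR adjusted p = 0.0466) and without Des-/- non-swim replicate 3 (0.0499).

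The highest of these values stood beside high levels of markers of other cells. The library with the highest Hmox1, Gpx1 and Sod3, Des-/- non-swim replicate 3, had a macrophage sum of 4388 CPM, and the one with the highest Gpx3, Des-/- swim replicate 3, had 1475 CPM, the next highest. Des-/- non-swim replicate 3 also had the highest sums of the fibroblast (41953 CPM), erythrocyte (4586 CPM), neutrophil (48.6 CPM) and early-response (8641 CPM) markers. Which of these went with its Hmox1, Gpx1 and Sod3 cannot be told from 1 library. The other 4 Des-/- libraries had macrophage sums of 707, 432, 341 and 241 CPM. The sums of 341 and 241 CPM, in Des-/- swim replicates 1 and 2, lay within the 233 to 352 CPM of Des+/+ libraries. Gpx1 at 208 and 206 CPM and Sod3 at 127 and 136 CPM in these replicates were above every Des+/+ library, and Hmox1 at 22.9 and 25.1 CPM was not. Their fibroblast sums were 4887 and 4361 CPM, against 2474 to 4148 CPM in Des+/+ libraries. In Des-/- swim replicate 3, with a macrophage sum of 1475 CPM, Hmox1 was at 26.8 CPM, below the 27.9 CPM of Des+/+ swim replicate 2. At rest 7 of 10 macrophage markers and 10 of 10 fibroblast markers rose in Des-/-, and after swimming 0 of 10 and 1 of 10 did. Of all genes tested 13.8% rose at rest and 4.99% were higher after swimming. The part of these marker differences in the values of Hmox1, Gpx1, Sod3 and Gpx3 was not tested.

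**Figure D3:**
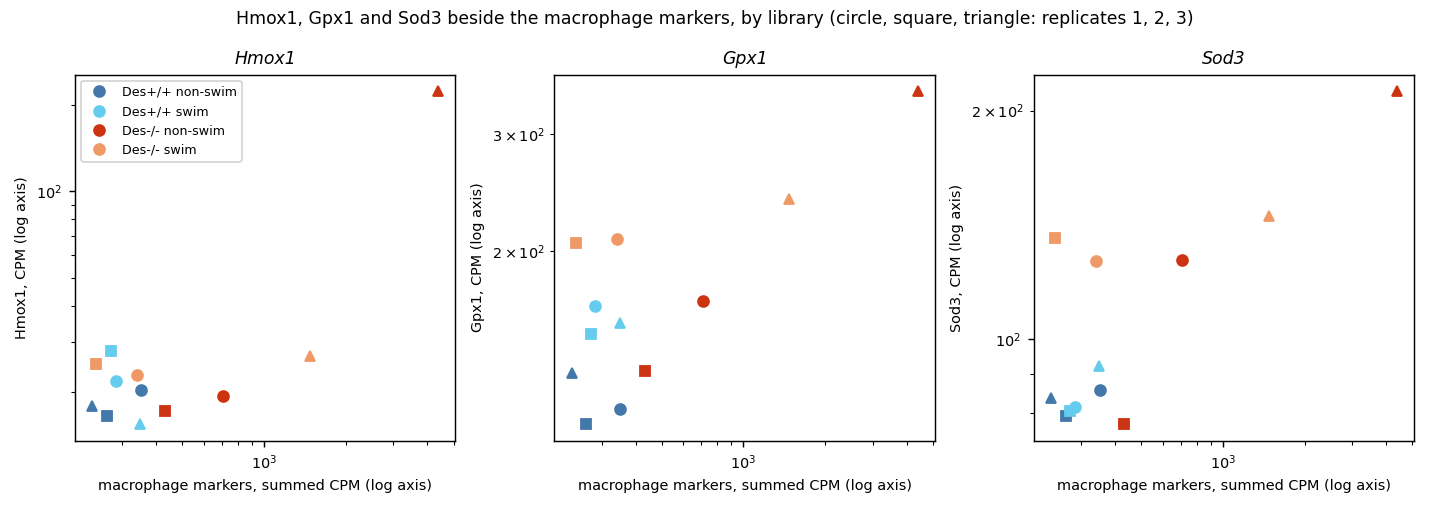
Level of Hmox1, Gpx1 and Sod3 (vertical log axes, CPM) against the summed level of 10 macrophage markers (horizontal log axes, CPM) in the 12 libraries. Circles, squares and triangles are replicates 1, 2 and 3. Des-/- non-swim replicate 3 lies at 4388 CPM of macrophage markers with the highest level of all 3 genes. It also had the highest sums of fibroblast, erythrocyte, neutrophil and early-response markers, which are not plotted.

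The genes that fell did so beside the markers of heart muscle and its mitochondria. In Des-/- non-swim libraries 10 of 10 cardiomyocyte markers and 37 of 37 tested genes for nuclear-encoded subunits of the respiratory chain fell, the latter with a median log2 change of -1.70. After swimming 1 of 10 and 7 of 37 were lower, with a median of -0.56 for the respiratory chain. Of all genes tested 18.0% fell at rest and 5.60% were lower after swimming. The 3 genes with the most similar pattern to Sod2 over the 12 libraries, by Pearson correlation of log2 CPM, were Acadl, Atp5a1 and Uqcrc2 (0.995 each), and for Prdx3 they were Cs, Fh1 and Pdha1 (0.997 each). For Prdx5 the closest were Uqcrh (0.979), Mrpl2 (0.978) and Mrpl28 (0.973), and for Cat they were Pex19 (0.979), Vwa8 (0.977) and Plpp7 (0.976). Nqo1 was closest to Pecr (0.992), Xrcc5 (0.988) and Sspn (0.976). Sod1 was closest to Stk11 (0.967), Chrac1 (0.963) and Rabac1 (0.953), and its correlation with Prdx5 was 0.81 over all libraries and 0.83 within groups. Among the genes that were higher, Gpx1 was closest to Sbno2 (0.954), Tpcn2 (0.948) and Pabpc1 (0.946), Hmox1 to Gla (0.973), Sh2b2 (0.946) and Kcnn4 (0.943), Sod3 to Rtf2 (0.957), Impdh2 (0.951) and Mpdu1 (0.943), and Gpx3 to Itgb5 (0.941), Itgbl1 (0.934) and Rexo5 (0.932).

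To set these enzymes against the mitochondrial genes around them, Sod2, Prdx3 and Prdx5 were also expressed relative to the mean log2 CPM of 37 respiratory chain genes in the same library. Relative to that mean, Sod2 averaged -0.18 in Des+/+ non-swim, -0.20 in Des+/+ swim, -0.51 in Des-/- non-swim and -0.81 in Des-/- swim. Its genotype difference, averaged over the swimming conditions, was -0.47 on the log2 scale (exact permutation test within conditions, two-sided, 400 arrangements, p = 0.01). Prdx3 gave -0.39 (exact p = 0.02). The differences without and after swimming were -0.32 and -0.61 for Sod2 and -0.22 and -0.57 for Prdx3. For both genes the genotypes overlapped at rest and did not overlap after swimming. Prdx5 went the other way, with 0.54 (exact p = 0.005, the smallest these arrangements allow), 0.60 without swimming and 0.47 after it. The 6 Des-/- values of Prdx5 ran from -0.72 to 0.04 and the 6 Des+/+ values from -1.03 to -0.67, and within each swimming condition the genotypes did not overlap. Adjusted over these 3 tests (Benjamini-Hochberg), the exact permutation p was 0.015 for Sod2, 0.02 for Prdx3 and 0.015 for Prdx5. Vdac1, Cs and Cycs were also used as the reference in place of the respiratory chain. Against them the differences of Sod2 and Prdx3 were -0.07 and 0.003 and did not pass, so their relative drop depended on the reference. Cs was the gene most similar to Prdx3 over the 12 libraries (Pearson correlation 0.997). A small difference for Prdx3 was therefore partly built into this reference. Prdx5 kept its direction and its call against it.

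**Figure D4:**
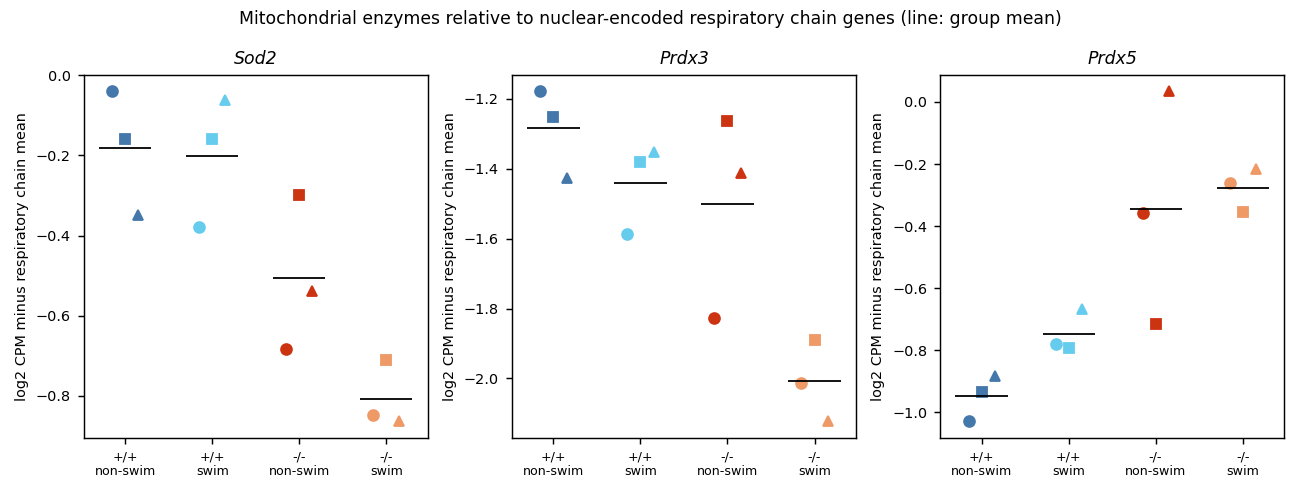
Log2 CPM of Sod2, Prdx3 and Prdx5 minus the mean log2 CPM of 37 nuclear-encoded respiratory chain genes in the same library (vertical axes) by group (horizontal axes), with lines at group means (n = 3) and circles, squares and triangles for replicates 1, 2 and 3. Sod2 and Prdx3 are lowest in Des-/- swim, at -0.81 and -2.01, and Prdx5 is higher in Des-/- groups, at -0.35 and -0.28 against -0.95 and -0.75.

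Swimming itself was compared within each genotype. In Des+/+ mice 0 of the 10 genes passed with edgeR, 3 of 10 had an unadjusted p under 0.05 against 20.4% of all genes, and DESeq2 called 2. With edgeR 0.0912% of all genes passed. The 3 were Cat with a log2 change of -0.86 (SE 0.23, edgeR adjusted p = 0.105), Nqo1 with -1.32 (SE 0.41, adjusted p = 0.127) and Prdx3 with -0.64 (SE 0.26, adjusted p = 0.209). DESeq2 called Cat and Nqo1. The libraries before and after swimming did not overlap for 6 of the 10, against 31.3% of all genes. Sod2, Cat, Gpx3, Prdx3 and Nqo1 were lower in every Des+/+ swim library than in every Des+/+ non-swim library, and Gpx1 was higher in each. Summed erythrocyte markers were at 179.5 to 547 CPM in Des+/+ non-swim and 1394 to 2180 CPM in Des+/+ swim libraries, and reads in no gene made up 34.0 to 39.3% and 45.9 to 50.4% of uniquely aligned reads. Neither overlapped. The summed cardiomyocyte markers did not overlap either, at 56466 to 90332 CPM in Des+/+ non-swim and 29443 to 50096 CPM in Des+/+ swim. The log2 change was below 0 for 37 of 37 respiratory chain genes, with a median of -0.48, and 0 were called. The part of these shifts in the values of the 6 genes was not tested.

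In Des-/- mice 0 of the 10 passed with edgeR and 0 with DESeq2, 3 had an unadjusted p under 0.05, against 16.6% of all genes, and 0.0228% of all genes passed. Prdx5 had a log2 change of 0.67 (SE 0.20, edgeR adjusted p = 0.200) and Sod1 0.56 (SE 0.20, adjusted p = 0.230), and both were higher in all 3 Des-/- swim libraries than in all 3 Des-/- non-swim libraries. These were the 2 of 10 without overlap, against 19.4% of all genes. The third, Hmox1, had a change of -1.80 (SE 0.79, adjusted p = 0.287) that was 0.45 without Des-/- non-swim replicate 3. The log2 change was above 0 for 35 of 37 respiratory chain genes (median 0.59) and below 0 for 2. Of the 37, 17 had an unadjusted edgeR p under 0.05 and 0 were called. Changes were above 0 for 10 of 10 cardiomyocyte markers (median 0.57). They were below 0 for 10 of 10 fibroblast markers (median -1.04) and 10 of 10 macrophage markers (median -1.26). Of these markers 0 were called. The part of these shifts in the values of Prdx5, Sod1 and Hmox1 was not tested.

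The interaction, swimming in Des-/- minus swimming in Des+/+, asked whether the response to swimming depended on genotype. It passed for 0 of the 10 with edgeR and 0 with DESeq2, as for 0% of all genes with edgeR, and 3 had an unadjusted p under 0.05, against 16.2% of all genes. Prdx5 had an interaction of 0.95 on the log2 scale (SE 0.29, edgeR adjusted p = 0.200), Cat 0.94 (SE 0.33, adjusted p = 0.222) and Sod1 0.74 (SE 0.28, adjusted p = 0.241). The smaller genotype difference of Cat and Prdx5 after swimming was therefore not shown to differ from that at rest. The respiratory chain genes had a median interaction of 1.07, with 37 of 37 above 0 and 31 of 37 at an unadjusted p under 0.05, and 0 of 37 passed.

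The wider antioxidant network was read from 106 genes in 8 lists, of which 102 were tested. At rest 52 of these were called, 40 lower and 12 higher in Des-/-, where 18.0% and 13.8% of all genes were, so the share of higher genes was no larger than the background. After swimming 9 were called, 6 lower and 3 higher, near or under the 5.60% and 4.99% of all genes. The latter count was 0 without Des+/+ swim replicate 3, 3 to 5 without any other swim library and 23 without Des-/- non-swim replicate 3. Swimming within either genotype and the interaction gave 0 with edgeR, with 35, 16 and 28 of 102 at an unadjusted p under 0.05 and 13, 2 and 5 called by DESeq2 for swimming in Des+/+, swimming in Des-/- and the interaction. Of all genes 20.4%, 16.6% and 16.2% had an unadjusted p under 0.05 in these comparisons, so the count for swimming in Des-/- was at the background.

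Enzymes that work beside the peroxiredoxins mostly fell at rest. In the thioredoxin and peroxiredoxin list 11 of 18 fell and 1 rose, where 18.0% and 13.8% of all genes did. The median log2 change was -0.76. Msrb2 and Msra, which repair oxidised methionine, fell by 1.42 (SE 0.22, edgeR adjusted p = 0.00133) and 1.34 (SE 0.19, adjusted p = 0.000988). Prdx4, the peroxiredoxin of the endoplasmic reticulum, rose by 0.97 (adjusted p = 0.0155), with a Des+/+ mean of 32.9 ± 4.34 CPM and a Des-/- mean of 64.5 ± 17.9 CPM (SD, n = 3). The change was 0.72 (adjusted p = 0.0530) without Des-/- non-swim replicate 3. After swimming Msrb3 (-0.56, adjusted p = 0.0360) and Txn2, the mitochondrial thioredoxin that serves Prdx3 and Prdx5 (-0.54, adjusted p = 0.0307), were lower.

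In the glutathione list 10 of 22 fell and 1 rose, where 18.0% and 13.8% of all genes did, with a median of -0.66. Gsta4 and Mgst3, transferases that conjugate glutathione to lipid oxidation products, fell by 2.29 and 1.87 on the log2 scale (edgeR adjusted p = 0.00126 and 0.00504), and Gpx7, a glutathione peroxidase family member of the endoplasmic reticulum, rose by 1.36 (adjusted p = 0.0133), or by 0.83 (adjusted p = 0.0418) without Des-/- non-swim replicate 3. Of the NADPH supply 3 of 9 fell and 2 rose, where 18.0% and 13.8% of all genes did. The mitochondrial NADP-dependent enzymes Idh2 (-2.08, adjusted p = 0.00825) and Me3 (-2.40, adjusted p = 0.00143) fell, and Tkt of the pentose phosphate pathway rose (0.91, adjusted p = 0.00433), as did the NAD kinase Nadk by 0.30 (adjusted p = 0.0421). Without Des-/- non-swim replicate 3 Nadk was not called (0.31, adjusted p = 0.0906). Nnt, the mitochondrial transhydrogenase, had 0 to 2 counts per library under 2 overlapping gene entries, so its level was not measured.

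The peroxisome list, the closest in place to Cat, had 7 of 8 lower and 0 higher at rest, where 18.0% and 13.8% of all genes were. Its median was -1.06. Pex11a, which drives peroxisome division, fell by 2.18 (edgeR adjusted p = 0.00118). In the Nrf2 control list 2 of 10 fell and 0 rose, near or under the 18.0% and 13.8% of all genes. Those that fell were Cul3 (-0.71, adjusted p = 0.00180) and Nfe2l1 (-0.64, adjusted p = 0.0226). Nfe2l1 was not called without Des-/- non-swim replicate 3 (-0.47, adjusted p = 0.0758). Nfe2l2, which encodes Nrf2, had a log2 change of 0.03 (SE 0.18, adjusted p = 0.927) and its repressor Keap1 -0.13 (SE 0.14, adjusted p = 0.504). The glutamate-cysteine ligase subunits Gclc and Gclm, classical Nrf2 targets like Nqo1 and Hmox1, had log2 changes of 0.03 (adjusted p = 0.893) and -0.14 (adjusted p = 0.514), and were named after their values were seen. After swimming Cul3 (-0.50, adjusted p = 0.0277) and Mafk, a small Maf partner of Nrf2 (-0.55, adjusted p = 0.0422), were lower.

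Heme, iron and metal handling had 2 of 15 lower and 2 higher at rest, near or under the 18.0% and 13.8% of all genes. Without Des-/- non-swim replicate 3 these were 4 lower and 1 higher. Blvrb, a biliverdin reductase gene, rose at rest (0.89, edgeR adjusted p = 0.00759) and was higher after swimming (1.23, adjusted p = 0.0114). Fech, whose enzyme inserts the iron in the last step of heme synthesis, was lower in both conditions (-0.76, adjusted p = 0.00813, and -0.73, adjusted p = 0.0284). The ferritin light chain gene Ftl1 rose by 1.59 (adjusted p = 0.0235), with 2513 CPM in Des-/- non-swim replicate 3 and 544 to 688 CPM in the other Des-/- non-swim libraries, and its change without that library was 0.57 (adjusted p = 0.0512). Alas1, which starts heme synthesis, fell by 1.10 (adjusted p = 0.0152). Of the selenoprotein synthesis genes, which make the active site of the Gpx enzymes possible, 2 of 7 fell, where 18.0% of all genes did. They were Pstk (-0.88, adjusted p = 0.0146) and Sephs2 (-0.64, adjusted p = 0.00642), and the other 5 did not pass.

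The sources of superoxide and peroxide had 6 of 13 genes higher at rest, 3 lower and a median of 1.74. Of all genes 13.8% were higher and 18.0% lower. Without Des-/- non-swim replicate 3 the list had 2 higher, 3 lower and a median of 0.55. Cybb and Rac2, parts of the phagocyte NADPH oxidase, rose by 2.75 (edgeR adjusted p = 0.0457) and 2.90 (adjusted p = 0.0155), but had changes of 0.60 (adjusted p = 0.502) and 1.31 (adjusted p = 0.0727) without that library, which had 241 and 48.3 CPM of them. Nox4 and Duox1 rose at low levels. Nox4 was at 3.34 to 5.38 CPM in Des+/+ non-swim and 11.6 to 17.2 CPM in Des-/- non-swim (1.74, adjusted p = 0.0176), and at 1.50 to 3.42 CPM and 6.78 to 28.2 CPM after swimming (2.52, adjusted p = 0.0161). Duox1 was at 1.29 to 2.59 CPM and 7.93 to 14.1 CPM at rest (2.37, adjusted p = 0.00286) and at 0.963 to 2.01 CPM and 3.72 to 10.8 CPM after swimming (2.21, adjusted p = 0.0181). Both were also called at rest without Des-/- non-swim replicate 3 (adjusted p = 0.0470 and 0.00601). Maob and Aox1, oxidases that release peroxide, fell by 1.82 (adjusted p = 0.000988) and 1.47 (adjusted p = 0.00252).

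**Figure D5:**
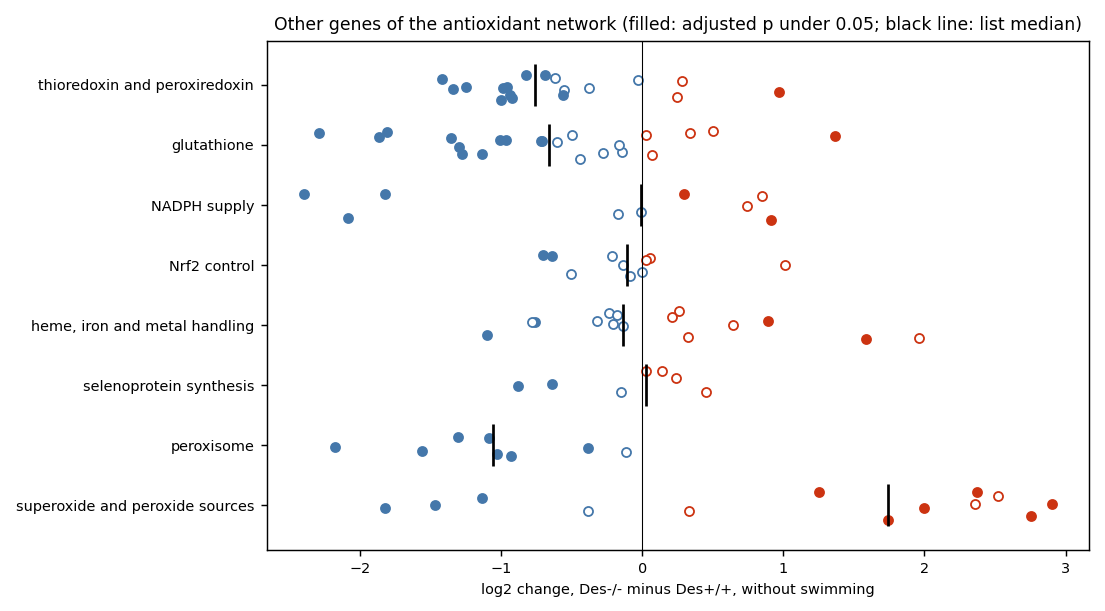
Log2 change between genotypes without swimming, Des-/- minus Des+/+ (horizontal axis), of the 102 tested genes of the antioxidant network in 8 lists (vertical axis, points spread for visibility). Filled points had an edgeR adjusted p under 0.05 and black lines are list medians, which run from -1.06 for the peroxisome to 1.74 for superoxide and peroxide sources.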

How the data were processed

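RNA was measured in 12 libraries of adult cardiomyocytes, 4 groups of 3 taken from the labels. The deposited files hold whole-number read counts per gene for each library, which the authors made from single-end reads aligned to GRCm38 (mm10) with HISAT2 2.2.1, SAMtools 1.13 and HTSeq, counting with the reverse strand option. The study's methods name a directional library kit and the labels name one that does not mark strand. Per the file headers and rows, no other column was present, and 5 rows that name no gene were left out of library sizes. Of uniquely aligned reads, means of 36.4%, 47.8%, 45.2% and 60.0% lay in no gene in Des+/+ non-swim, Des+/+ swim, Des-/- non-swim and Des-/- swim.

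Counts were tested with the edgeR 4.0.16 quasi-likelihood test in R 4.3.3 (limma 3.58.1), with filtering by expression, TMM scaling, 1 model of 4 group means over 12 libraries with 8 residual degrees of freedom, and Benjamini-Hochberg adjustment over 13158 genes. Log2 CPM used a prior count of 2. An adjusted p under 0.05 was called. DESeq2 1.42.0, other scalings and filters, the study's filter (unadjusted p, fold and mean count), only the groups compared, a replicate block and leaving out libraries were the alternatives. Sod2, Prdx3 and Prdx5 relative to respiratory chain genes were tested by exact permutation. Counts were simulated for the genotype comparison without swimming, with 13047 genes run. Of 100 genes changed by 1 on the log2 scale 38 were recovered, and of 100 changed by 2, 82 were, with 7 false calls. Only these genes were changed there, whereas 18.0% of all genes fell and 13.8% rose in the data. The adjustment was therefore stricter in the simulation, and its recovery is not that of the real comparison.

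The 10 members, the 8 network lists and the marker lists were chosen with earlier results of these data known. Network genes were named by the largest called change per list and direction, up to 2 each, where the mean count reached 20, and genes of similar pattern as the 3 highest Pearson correlations per member. Nadk2 and Duox2 were not analysed here, and Slc7a11 did not pass the filter (0 to 26 counts). Precision rests on 3 pools per group. The smallest count of any member was 25, and 3 counts correspond to 0.249 to 0.694 CPM. Libraries sharing a replicate number deviated together from their group means for swimming in Des-/- (correlations 0.36, 0.32 and 0.60), which the labels do not state as a pairing. Libraries numbered 1 and 2 correlated with each other about as much (0.30 and 0.29), and replicate 3 stood apart from both. In no other comparison did all same-numbered libraries correlate above 0.1.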

Additional observations from a re-analysis of the deposited data

How the results depend on the processing

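Over 50 member changes and 1040 alternative values, 956 kept direction and side of the threshold, 16 lost the call, 39 gained one and 29 changed sign. Members called at rest numbered 5 to 8 with 1 library left out, 8 with DESeq2 and 6 with the replicate block, against 6. After swimming, against 2, they numbered 4 with DESeq2, 5 with the study's filter and 0 to 5 with 1 library left out. For swimming in Des+/+, DESeq2 called 2 and the study's filter 3, for swimming in Des-/- that filter called 2 and for the interaction 3, against 0 each. Network genes called after swimming, against 9, were 20 with DESeq2, 15 without both Des-/- libraries numbered 3, 17 with the study's filter, 11 with the replicate block and 0 to 23 with 1 library left out. For swimming in Des+/+, against 0, they were 13 with DESeq2, 1 with median ratio scaling, 1 with the replicate block, 5 with only the groups compared, 6 without both libraries numbered 3, 16 with the study's filter and 0 to 2 with 1 left out. For swimming in Des-/- they were 2 with DESeq2, 2 without both libraries numbered 3 and 9 with the study's filter, and for the interaction 5 with DESeq2 and 23 with the study's filter. The study's filter uses unadjusted p-values, and the other causes were not tested. The replicate block changed no call of a member. Relative to Vdac1, Cs and Cycs, Sod2 gave -0.071 and Prdx3 0.0028. The other sign changes concerned values that were not called. For Sod3, swimming in Des-/- (main -0.03) gave 0.037 with the block, 0.38 without both libraries numbered 3 and -0.32 to 0.42 with 1 left out, the interaction 0.012, 0.27 and -0.35 to 0.37, and swimming in Des+/+ -0.035 to 0.066 with 1 left out. For Gpx1, swimming in Des-/- gave -0.0050 with no filter and -0.24 to 0.54 with 1 left out, and the interaction 0.0039 without both libraries numbered 3 and -0.64 to 0.13. For Gpx3, swimming in Des-/- gave -0.18 without both libraries numbered 3 and -0.35 to 0.31, and the interaction -0.056 to 0.60. For Hmox1, swimming in Des-/- gave 0.40 without both libraries numbered 3 and -2.28 to 0.45, the interaction 0.063 and -2.54 to 0.17, and the genotype difference after swimming -0.0013 to 0.41. Swimming in Des-/- ranged with 1 left out from -0.0093 to 0.15 for Cat and from -0.13 to 0.41 for Prdx3. Upper quartile scaling moved the median of all genes to 0.14 at rest and 0.12 after swimming, from 0.04 and 0.02. Depth was lowest in Des-/- swim libraries, which limits the comparisons that use them.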
